A study of Mus musculus with 8 samples.

Results

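A set of 10 genes that mark monocytes and macrophages was followed in myeloid-derived suppressor cells (MDSCs) grown from mouse bone marrow, with and without the histone deacetylase inhibitor Romidepsin. They were taken by name: Adgre1, Cd14 and Ly6c2 for surface antigens, Ms4a7 and Ms4a6c for membrane proteins of the MS4A family, Cd68 and Lyz2 for a lysosomal glycoprotein and lysozyme, and F13a1, Vcan and Tgfbi for secreted or matrix proteins. All 10 were among the 26930 genes of the count table and among the 12852 with enough counts to be tested. The 2 groups had 4 libraries each, and their labels differ only in the drug. Both came from C57BL/6 marrow cultured with GM-CSF and IL-6 at 40 ng/ml each. On day 4 the medium was changed to one conditioned by TRAMP-C1 cells, a mouse prostate tumour line. The labels call the cells senescent-like after that change. Treated cells received Romidepsin at 0.5 µM for 6 h and untreated cells did not. The labels do not say whether replicates came from different mice or dishes, and each p-value therefore speaks only of how far these libraries vary, which could be technical variation.

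Monocytes leave the bone marrow with high Ly6C on their surface and become macrophages in tissue, where Ly6C falls and the adhesion receptor encoded by Adgre1, the classical mouse macrophage antigen, is kept or gained. MDSCs are immature myeloid cells that restrain T cells, and they are usually divided into a monocytic kind with high Ly6C and a granulocytic kind that resembles neutrophils. Marrow cultured with GM-CSF and IL-6 gives both kinds, and a bulk sample holds the transcripts of both. In such a sample, fewer cells of a type and less RNA per cell cannot be told apart.

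All 10 markers had a lower mean in treated than in untreated cells, and 8 of them were lower in every one of the 4 pairs of libraries with the same replicate number, as were 29.5% of all genes tested. F13a1, Vcan and Tgfbi, listed above under secreted or matrix proteins, fell in the unpaired fit, to between 19.0% and 31.8% of their untreated means. The grouping served to list the markers and was not tested. That fit used the edgeR quasi-likelihood test, with p adjusted by Benjamini-Hochberg over all tested genes. The remaining 7 did not pass that test. With the libraries paired by a replicate block in the model, 8 of 10 fell, Ms4a6c the most, and Adgre1 and Cd14 did not pass in either fit. In edgeR's unpaired and paired fits and in DESeq2, 0 of the 10 rose, and 0 were higher at an unadjusted p under 0.05, where 20.3%, 21.2% and 21.9% of all genes were called higher.

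These counts stand beside a wide response of the transcriptome. Of all 12852 genes tested, 16.2% were called lower in the unpaired fit and 20.8% with the block, against 3 and 8 of the 10 markers. The markers are abundant: every one lay in the highest of 5 equal classes of mean expression over all libraries, and in that class 23.1% of genes were called lower without and 32.2% with the block. The unpaired count of 3 is therefore near the share of equally abundant genes, and the paired count of 8 is above it. The median log2 fold change of the 10 markers was −1.22 in the unpaired fit and −1.79 with the block, where the medians of all genes were 0.0057 and 0.011.

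The number of markers called lower moved with the fit. DESeq2 and limma-voom each called 4 (21.7% and 18.7% of all genes), library size alone and housekeeping scaling 2 each (10.6% and 5.52%), and a filter at a mean of at least 10 CPM also 2 (17.7%). With no count filter 0 were called in edgeR (6.27% of all genes), with 5 at an unadjusted p under 0.05. Without treated replicate 3 the count rose to 6 (23.4%), and without both libraries of number 3 it was 4 (18.9%). Leaving out another library gave 0 without untreated replicate 4 (13.6%; 3 at an unadjusted p under 0.05), 1 without treated replicate 1 (9.46%), and 2 without untreated replicate 1 (13.4%), 2 (10.9%) or 3 (9.60%) or treated replicate 2 (10.1%) or 4 (9.20%). Combined with the block, housekeeping scaling gave 6 (7.76%), library size alone 6 (14.2%), and leaving out both libraries of number 3 gave 7 (20.3%). The groups did not overlap for 4 of the 10 markers, F13a1, Vcan, Tgfbi and Lyz2, and for 16.5% of all genes with every treated library below every untreated one.

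**Figure D1:**
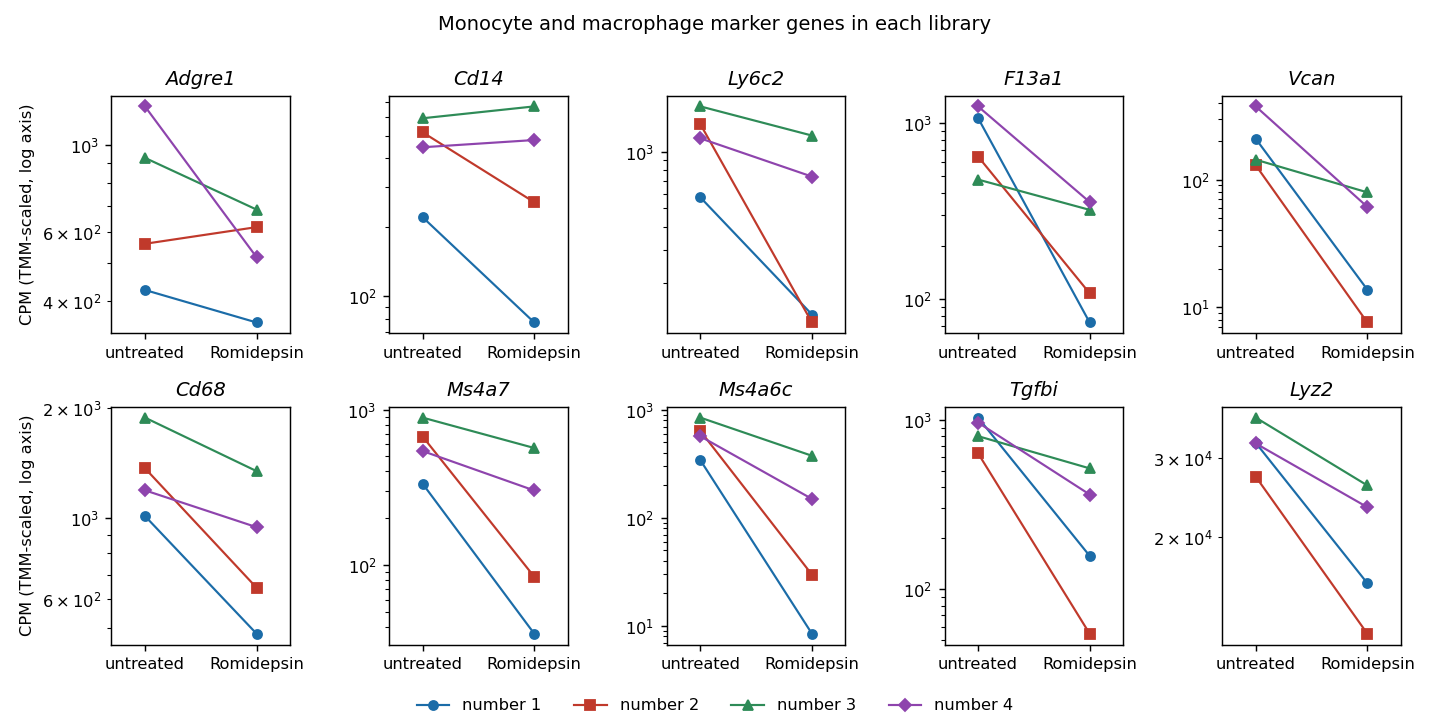
Level of each of the 10 marker genes in every library, as CPM on the TMM scale (counts scaled to a common library total), on a log axis that differs between panels. A line joins the untreated and the treated library of one replicate number. Numbers 1 and 2 (circles and squares) drop steeply in most panels, number 3 (triangles) drops least in 7 of 10, and the lines of Cd14 and Adgre1 do not all point down.

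Levels are given as CPM, the usual counts-per-million unit of edgeR, after the library totals were adjusted by edgeR's trimmed mean of M-values method (TMM). The libraries held 12996892 to 23176949 counts, and the lowest count behind any value of a marker was 120, for Vcan in 1 library. Mitochondrially encoded transcripts took 0.934% to 1.89% of the counts in untreated and 1.59% to 3.05% in treated libraries. On the first principal component, which held 70.6% of the variance, the position of treated replicate 3 was −4.82. Untreated libraries lay at −63.6 to −40.7, and treated replicates 1, 2 and 4 at 40.6 to 88.7. The fold changes of all 10 markers are given with and without it, and those of other named genes called in either fit where leaving it out moved the fold by more than 1.5 times.

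The regions upstream of the start site are shown for the 3 genes that fell in both fits, and for Ly6c2 and Cd68, in which the letters searched for were found. Promoters came from RefSeq on build GRCm38.p6, and 11 windows for 8 of the 10 markers were used. No window of Adgre1 or Cd14 was searched, so their promoters were not tested. The 250 bases before each start were searched on both strands for 7 motifs: the long PU.1 motif GAGGAAGT, the shorter core GAGGAA that it contains, a C/EBP motif TTNNGCAA, an AP-1 motif TGANTCA, the interferon-stimulated response element, the ETS-IRF composite element and the TATA box TATAAA. Sequences run 5′ to 3′ on the gene's strand, end at the start site or, for Tgfbi, just before the annotated gene, and have matches in capitals.
F13a1 (chr13:37050245-37050494, minus strand): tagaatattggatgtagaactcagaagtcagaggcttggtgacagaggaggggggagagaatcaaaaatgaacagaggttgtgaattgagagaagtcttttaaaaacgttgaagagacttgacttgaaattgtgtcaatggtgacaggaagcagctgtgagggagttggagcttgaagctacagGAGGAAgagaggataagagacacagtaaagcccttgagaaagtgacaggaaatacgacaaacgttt
Vcan (chr13:89742513-89742762, minus strand): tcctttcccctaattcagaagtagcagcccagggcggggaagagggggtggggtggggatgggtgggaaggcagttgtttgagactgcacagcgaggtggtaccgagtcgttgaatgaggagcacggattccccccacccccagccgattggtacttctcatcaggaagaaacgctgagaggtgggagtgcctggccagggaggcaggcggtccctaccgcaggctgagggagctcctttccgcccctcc
Tgfbi (chr13:56609336-56609522, plus strand): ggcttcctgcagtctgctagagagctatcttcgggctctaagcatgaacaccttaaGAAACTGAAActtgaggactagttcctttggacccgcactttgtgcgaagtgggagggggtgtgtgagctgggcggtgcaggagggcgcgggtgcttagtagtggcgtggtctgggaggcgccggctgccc
Ly6c2 (chr15:75111972-75112221, minus strand): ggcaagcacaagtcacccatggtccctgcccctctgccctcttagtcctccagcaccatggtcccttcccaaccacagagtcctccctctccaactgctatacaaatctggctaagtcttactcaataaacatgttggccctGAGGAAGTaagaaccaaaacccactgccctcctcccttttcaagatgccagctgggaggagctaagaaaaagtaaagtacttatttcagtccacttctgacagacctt
Cd68 (chr11:69666171-69666420, minus strand): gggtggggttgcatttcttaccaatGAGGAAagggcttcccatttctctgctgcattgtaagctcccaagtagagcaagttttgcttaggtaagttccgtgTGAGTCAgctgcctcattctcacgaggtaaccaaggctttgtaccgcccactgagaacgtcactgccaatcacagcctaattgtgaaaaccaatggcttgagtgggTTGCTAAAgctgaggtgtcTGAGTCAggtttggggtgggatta

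The long PU.1 motif was found in 1 of these 8 genes, Ly6c2, where its first base lay 108 bases before the start shown. The same match lay 142 bases before a second annotated start. Another match, 8 bases before that second start, is not in the sequence shown. The motif is present in 2.44% of all 32851 promoter windows counted. The core GAGGAA was found in Ly6c2, in Cd68 and in the window of F13a1 shown, but not in the other F13a1 window (23.3% of all windows), the AP-1 letters in Cd68 and in 1 window of Ms4a7 (6.75%), the C/EBP letters in Cd68 (9.56%) and the interferon response letters in Tgfbi (2.98%). The composite element and the TATA letters were in none of the 8 genes, at 2.30% and 12.4% of all windows. A match is a string of letters and not a binding site, and no match says only that these letters are not in these windows. F13a1, Vcan and Tgfbi thus had no motif of the list in common.

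F13a1, Vcan and Tgfbi all lie on mouse chromosome 13 of GRCm38, far from each other. Tgfbi is at 56609523 to 56639562, F13a1 at 36867178 to 37050244 and Vcan at 89655312 to 89742509. F13a1 encodes the catalytic A subunit of coagulation factor XIII, a transglutaminase that cross-links fibrin and is made by monocytes and macrophages. It was at 1065, 644, 476 and 1239.7 CPM in untreated replicates 1 to 4 and at 73.4, 108, 320.3 and 355 CPM in the treated replicates. The groups did not overlap, and treated replicates 1 and 2 were the low ones. F13a1 fell from a mean of 856 ± 356 to 214 ± 144 CPM (SD, n = 4 each), a log2 fold change of −2.0 ± 0.55 (SE, edgeR adjusted p = 0.0210).

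Vcan encodes versican, a large chondroitin sulfate proteoglycan of the matrix that classical monocytes express strongly. Untreated replicates 1 to 4 held 208, 129, 143 and 373 CPM of Vcan, and the treated ones 13.8, 7.62, 79.4 and 61.1 CPM. Again the groups did not overlap and treated replicates 1 and 2 were lowest, at 6.61% and 5.89% of the untreated library of the same number. The mean went from 213 ± 112 to 40.5 ± 35.3 CPM (SD, n = 4 each), a log2 fold change of −2.40 ± 0.72 (SE, edgeR adjusted p = 0.0295).

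Tgfbi encodes a secreted matrix protein that binds integrins and was named for its induction by TGF-beta. It was at 1031, 635, 801 and 964 CPM in the untreated and at 157, 54.6, 517 and 362 CPM in the treated replicates, in order of their numbers. Treated replicate 3 lay closest to the untreated range, which it did not reach. The mean fell from 858 ± 177 to 273 ± 207 CPM (SD, n = 4 each; log2 fold change −1.65 ± 0.58, edgeR adjusted p = 0.0498).

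The calls of these 3 genes differed in how well they held. Tgfbi stood just inside the threshold and stayed called in 8 of 18 alternative settings, among them the block (adjusted p = 0.0129) and DESeq2 (adjusted p = 0.00702), over a range of adjusted p from 0.00702 to 0.144. Its call ended without any 1 of the 4 untreated replicates or without treated replicate 1 or 4 (edgeR adjusted p 0.0712 to 0.116). F13a1 and Vcan each stayed called in 15 of 18 settings. The call of F13a1 ended without untreated replicate 4 (adjusted p = 0.0511), without treated replicate 2 (0.0512) and with no count filter (0.0595), and that of Vcan without untreated replicate 4 (0.0725), without treated replicate 1 (0.0619) and with no count filter (0.127). Without treated replicate 3 the log2 fold changes were −2.27 for F13a1, −2.97 for Vcan and −2.18 for Tgfbi.

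**Figure D2:**
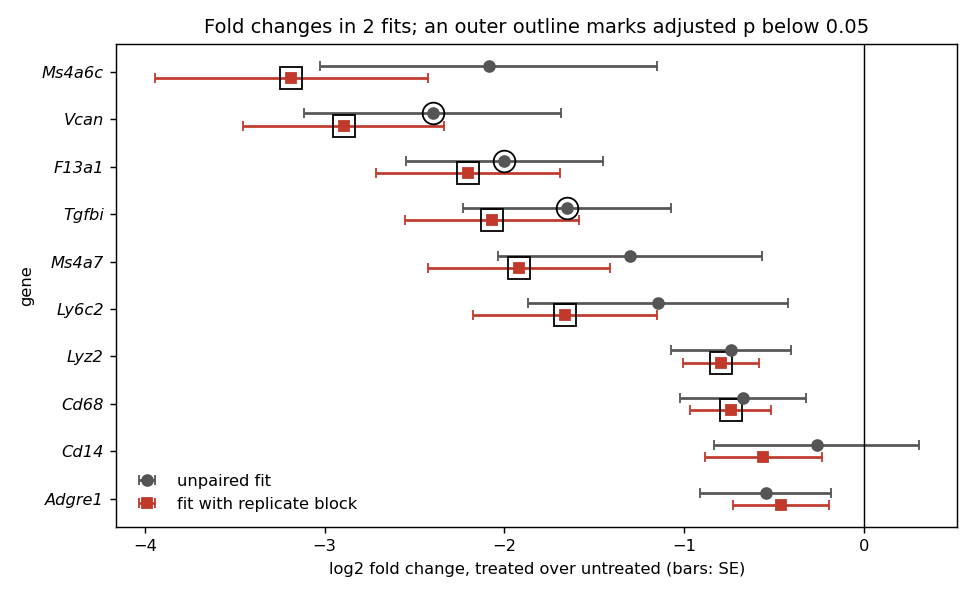
Log2 fold change, treated over untreated, of the 10 marker genes in the unpaired fit (circles) and in the fit with the replicate block (squares), with standard errors as bars. An outer outline marks an adjusted p below 0.05. The 3 outlined circles are Vcan, F13a1 and Tgfbi, and all squares but those of Cd14 and Adgre1 are outlined.

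Ms4a7 and Ms4a6c belong to a cluster of genes on chromosome 19 that encode proteins crossing the membrane several times, many of them expressed in monocytes and macrophages (Ms4a7 at 11321039 to 11336146, Ms4a6c at 11469366 to 11482192, GRCm38). Ms4a6c was at 342, 638, 847 and 569 CPM in untreated replicates 1 to 4, and at 8.49, 29.9, 376 and 149.9 CPM in the treated ones. Treated replicate 3 alone lay above the lowest untreated library, and treated replicates 1 and 2 held 2.48% and 4.68% of their untreated partners. The mean was 599 ± 208 CPM untreated and 141 ± 168 CPM treated (SD, n = 4 each).

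Ms4a6c did not pass the unpaired test (log2 fold change −2.09 ± 0.94, edgeR adjusted p = 0.106). It was called lower in the paired fit (−3.19 ± 0.76, adjusted p = 0.0145), when treated replicate 3 was left out (−3.27, adjusted p = 0.0166), without both libraries of number 3 (−3.05, adjusted p = 0.0367) and with limma-voom (−3.22, adjusted p = 0.0477). Its exons share 1088 bases with BE692007 on the opposite strand, and 47.7% of its 75-base windows also occur in that transcript. The level of BE692007 was 2.94 ± 1.43 CPM without and 0.614 ± 0.529 CPM with the drug (SD, n = 4 each). The sources used here do not say whether strand was used in counting, so the value of Ms4a6c is uncertain.

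Ms4a7 had 334, 671, 888 and 541 CPM in the untreated and 36.2, 84.2, 566 and 302 CPM in the treated replicates 1 to 4. As for Ms4a6c, treated replicates 1 and 2 were low, and treated replicate 3 lay inside the untreated range. Ms4a7 did not pass unpaired (−1.30 ± 0.73, edgeR adjusted p = 0.184), but its fall was called in the paired fit (−1.92 ± 0.51, adjusted p = 0.0206) and when treated replicate 3 was left out (−2.13, adjusted p = 0.0337).

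Lyz2 encodes lysozyme M, which cleaves the bacterial cell wall and is among the most abundant transcripts of mouse macrophages and neutrophils (chromosome 10, 117277331 to 117282321, GRCm38). Untreated replicates 1 to 4 held 32497, 27308, 36996 and 32389 CPM, and treated ones 15783, 12173, 26102 and 23337 CPM. No treated library reached an untreated one, and treated replicate 3 came closest. The mean went from 32297 ± 3959 to 19349 ± 6473 CPM (SD, n = 4 each), with a log2 fold change of −0.74 ± 0.33 that did not pass unpaired (edgeR adjusted p = 0.105) and fell with the block (−0.80 ± 0.21, adjusted p = 0.0199). DESeq2 called it as well (adjusted p = 0.0149), and leaving out treated replicate 3 gave −0.94 (adjusted p = 0.0589).

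Cd68 encodes a heavily glycosylated protein of lysosomes and endosomes and is a common macrophage marker (chromosome 11, 69664213 to 69666153, GRCm38). It was at 1012, 1366, 1878 and 1189 CPM in the untreated and at 483, 645, 1342 and 944 CPM in the treated replicates 1 to 4. Treated replicate 3 lay above 2 untreated libraries, so the groups overlapped, while each treated library was below its own partner. Cd68 did not pass unpaired (−0.67 ± 0.35, edgeR adjusted p = 0.154). It was called lower with the block (−0.74 ± 0.22, adjusted p = 0.0319), and without treated replicate 3 (−1.0, adjusted p = 0.0356). The call with the block ended when both libraries of number 3 were left out (−0.83, adjusted p = 0.0514).

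Lyz2 and Cd68 thus kept a larger part of their level than F13a1, Vcan and Tgfbi did: in every pair at least 44.6% of Lyz2 and 47.2% of Cd68 were left. Both lysosomal genes also depended on the scaling, as did the unpaired call of Tgfbi. The median gene shifted by 0.30 on the log2 scale when library size alone was used and by 0.72 when 20 housekeeping genes set the scale, and with the latter Lyz2 was at −0.10 (adjusted p = 0.747) and Cd68 at −0.037 (adjusted p = 0.915) in the unpaired fit. The calls that both genes had with the block ended under either scaling: Lyz2 was at −0.50 (adjusted p = 0.0508) with library size and −0.094 (adjusted p = 0.544) with housekeeping scaling, and Cd68 at −0.44 (adjusted p = 0.106) and −0.039 (adjusted p = 0.862). Fold changes in this text are relative to the TMM scale.

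Among the surface antigens, Ly6c2 encodes Ly6C, the antigen that separates classical from nonclassical mouse monocytes (chromosome 15, 75108158 to 75111970, GRCm38). It was at 573, 1405, 1747 and 1181 CPM in the untreated and at 136, 123, 1222 and 739 CPM in the treated replicates 1 to 4. Treated replicates 3 and 4 lay within the untreated range and replicates 1 and 2 far below it, with 23.8% and 8.78% of their partners left against 69.9% and 62.6% in numbers 3 and 4. Ly6c2 did not pass unpaired (−1.14 ± 0.72, edgeR adjusted p = 0.233) and fell with the block (−1.66 ± 0.51, adjusted p = 0.0346), which was the only one of 18 planned settings that called it. Its value without treated replicate 3 was −1.90 (adjusted p = 0.0535).

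Cd14 encodes the lipid-anchored co-receptor that hands bacterial lipopolysaccharide to TLR4 (chromosome 18, 36725067 to 36726798, GRCm38). Untreated replicates 1 to 4 held 221, 517, 595 and 445 CPM and treated ones 77.0, 257, 670.3 and 479 CPM. The pairs went both ways: treated replicates 1 and 2 had 34.9% and 49.7% of their partners, and treated replicates 3 and 4 had 113% and 108%. Cd14 did not pass in the unpaired fit (−0.26 ± 0.57, edgeR adjusted p = 0.734) or with the block (−0.56 ± 0.33, adjusted p = 0.199), and its direction reversed without treated replicate 1 (0.076) and with housekeeping scaling (0.29). Without treated replicate 3 it was −0.74 (adjusted p = 0.313).

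Adgre1 encodes the adhesion G protein-coupled receptor that serves as the classical macrophage antigen (chromosome 17, 57358691 to 57483527, GRCm38). It was at 427, 560.0, 929 and 1258 CPM in the untreated and at 352, 618, 685 and 517 CPM in the treated replicates 1 to 4. The treated libraries lay closer together than the untreated ones, and pair 2 went up, to 110.3% of its untreated level. The fold change did not pass (−0.55 ± 0.37, edgeR adjusted p = 0.257; −0.46 ± 0.27, adjusted p = 0.195 with the block) and reversed to 0.084 with housekeeping scaling. Leaving out treated replicate 3 gave −0.70 for Adgre1 (adjusted p = 0.177). Adgre1 was called in none of the 18 planned settings, and its unadjusted p was 0.168 in edgeR's unpaired fit and 0.119 in DESeq2.

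**Figure D3:**
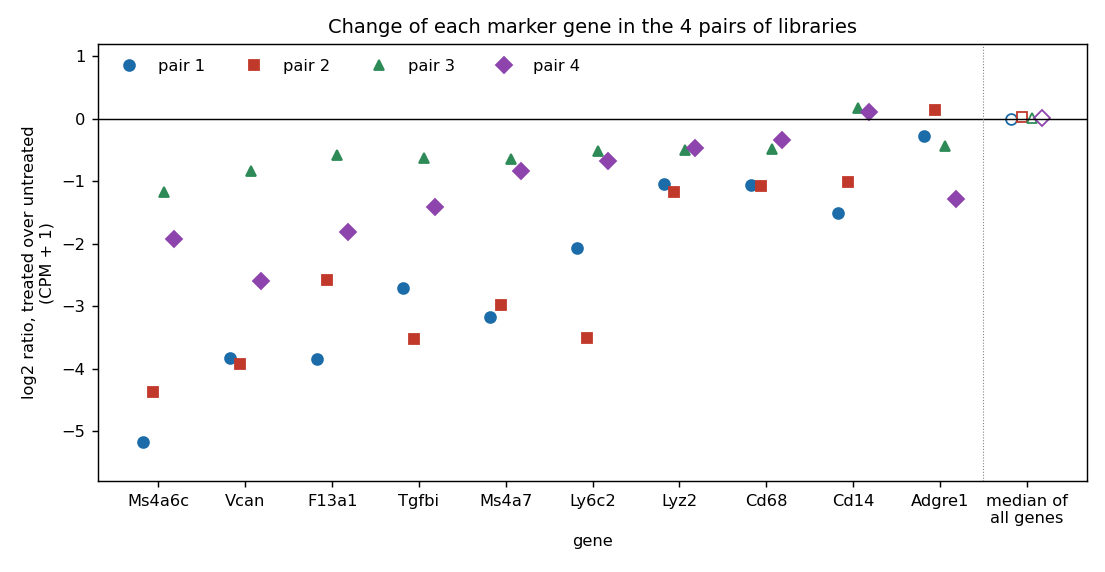
Log2 ratio of treated over untreated library in each of the 4 pairs, computed on CPM + 1, for the 10 marker genes ordered by their paired fold change, with the median of all tested genes at the right as open symbols. Pairs 1 and 2 have the lowest ratios of every marker but Adgre1, for which pair 4 is lowest.

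Read pair by pair, the markers split by replicate number. The median log2 ratio of the 10 genes was −2.38 in pair 1, −2.78 in pair 2, −0.54 in pair 3 and −1.06 in pair 4, and 9, 9, 1 and 5 markers were at least 2-fold lower. Over all tested genes, the median size of the log2 ratio was 0.65, 0.76, 0.37 and 0.60, and 17.5%, 19.4%, 4.86% and 14.5% of genes were at least 2-fold lower. For 9 of the 10 markers, all but Adgre1, the lowest ratios were those of pairs 1 and 2. Of 3791 genes lower in all 4 pairs, 50.3% had the same property, and the property is common among lower genes. The bases differ, since Cd14, counted among the 9 markers, was lower in only 2 of the 4 pairs. Being lower in all 4 pairs was itself found for 29.5% of all genes tested and for 43.8% of those in the highest expression class, against 8 of the 10 markers.

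The treated libraries also spread further apart. For 9 of 10 markers the ratio of the highest to the lowest library was larger in treated than in untreated cells. Adgre1 was the exception (1.94 treated, 2.95 untreated). The share of all genes with a wider treated range was not computed, so the count is not read as particular to the markers. On the first principal component of all tested genes, treated libraries ranged from −4.82 to 88.7 and untreated ones from −63.6 to −40.7. Ms4a6c had the widest treated range, 44.3-fold against 2.47-fold in untreated cells, and Lyz2 the narrowest untreated one, 1.35-fold. Treated replicate 3 was the highest treated library for 9 markers and treated replicate 4 for F13a1, while treated replicates 1 and 2 were lowest for 6 and 4 of them. In untreated cells replicate 1 was the lowest library for 6 markers (Adgre1, Cd14, Ly6c2, Cd68, Ms4a7 and Ms4a6c) and replicate 3 the highest for 6. The same untreated replicate 1 was the highest untreated library for Tgfbi.

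**Figure D4:**
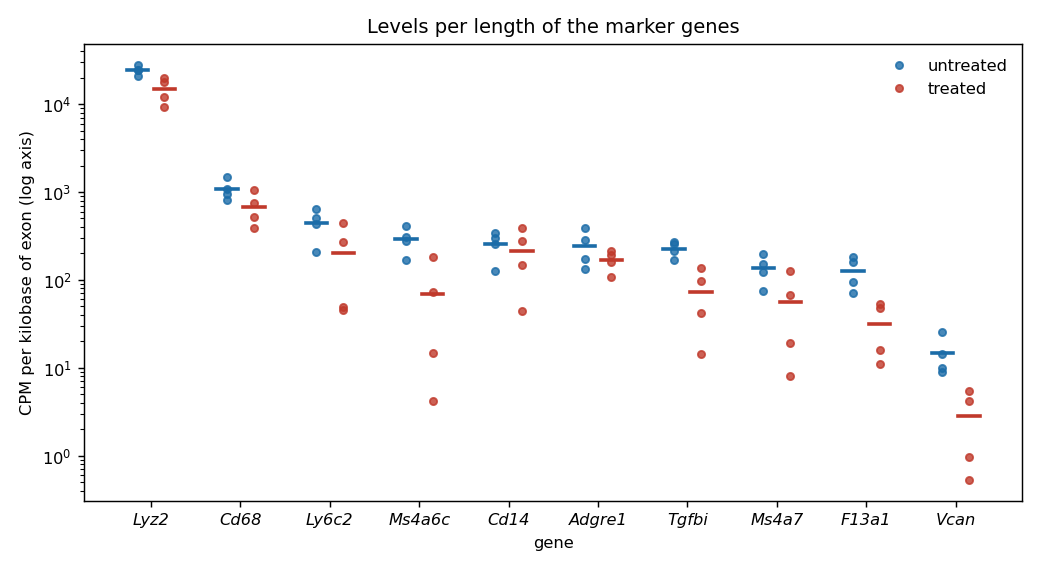
Level per length, in CPM per kilobase of annotated exon on a log axis, of the 10 marker genes in untreated (blue) and treated (red) libraries. Points are libraries and short lines are means. Lyz2 stands above all other markers in both groups and Vcan below them, except that treated Vcan overlaps Ms4a6c; untreated Cd68 also overlaps no other marker.

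Compared per length, as CPM per kilobase of exon, Lyz2 led the untreated cells at 24542 ± 3008, ahead of Cd68 at 1083 ± 297, and neither overlapped its neighbour in the order. Ly6c2 (448 ± 180), Ms4a6c (292 ± 101), Cd14 (257 ± 93.1), Adgre1 (245 ± 116), Tgfbi (227 ± 47.0), Ms4a7 (137 ± 52.2) and F13a1 (127 ± 52.8) followed, each overlapping the next (SD, n = 4). Vcan was lowest, at 14.8 ± 7.74, apart from all others. Its exons span 14462 bases in the annotation, more than those of any other marker, and transcripts that skip its large alternative exons would make this level an underestimate. In treated cells the ends of the order were the same, with Lyz2 at 14703 ± 4919, Cd68 at 679 ± 300.1, and Vcan at 2.80 ± 2.44, whose libraries overlapped those of Ms4a6c. Between them Cd14 (214 ± 149) and Ly6c2 (203 ± 193) could not be ordered, since each was higher in 2 of 4 libraries. Lyz2 made up 80.6% to 86.2% of the summed CPM of the 10 markers in untreated and 81.9% to 92.2% in treated libraries.

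Reads of near-identical copies could blur some values. Of the 75-base windows of Ly6c2, 9.46% also occur in Ly6c1, and of those of Lyz2, 5.96% in Lyz1, while 7 of the 10 markers shared no such window with another gene. Ly6c1 was at 2.58 ± 3.18 and Lyz1 at 36.2 ± 11.9 CPM in untreated cells (SD, n = 4), far under Ly6c2 and Lyz2. Ly6c1 did not pass (−0.09 ± 1.17, edgeR adjusted p = 0.958). Lyz1 did not pass unpaired (−0.72 ± 0.32, edgeR adjusted p = 0.10) and fell with the block (−0.74, adjusted p = 0.0133). F13a1 overlaps the antisense gene Gm30489 by 74 bases, which had no count in 7 of 8 libraries.

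Likeness between genes was measured as the root mean square difference of their 4 paired log2 ratios, against 9038 other genes, all with a mean of 10 CPM or more. Among the markers, Lyz2 and Cd68 were closest, at 0.083 log2 units, followed by Cd14 with Cd68 and Ms4a7 with Tgfbi, both at 0.45, and Ly6c2 with Tgfbi at 0.49. Ms4a6c and Adgre1 were farthest apart, at 3.37. For each marker some gene outside the list was closer than any marker was. This was likely beforehand, since nearly all genes compared were outside the list. Among the 9038 genes, the closest marker ranked 7 for Cd68, 8 for Lyz2, 49 for Ly6c2, 74 for Ms4a6c and 79 for Ms4a7. It ranked 89 for F13a1, 102 for Tgfbi, 176 for Vcan, 262 for Cd14 and 3502 for Adgre1. The closest gene to Adgre1 was Man2a1 (0.046), to Lyz2 Ssu72 (0.052) and to Cd68 Ltbr (0.064). The closest to Ms4a7 was the transcript Mir142hg (0.076) and to Cd14 Dab2 (0.12). For Tgfbi it was Ncf4 (0.17), for Ly6c2 Apoc1 (0.17), for Vcan Cd300lb (0.17), for Ms4a6c Gpr183 (0.23) and for F13a1 Cd200r1 (0.28). The points share libraries, so these distances only describe the 4 pairs.

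Of 36 other monocyte and macrophage genes, 35 were tested, of which 6 fell and 29 did not pass in the unpaired fit, a share near the 16.2% of all genes (median log2 fold change −1.02). The block gave 26 lower and 1 higher (20.8% and 21.2% of all genes), and leaving out treated replicate 3 gave 19 lower (23.4% of all genes), while leaving out any other library gave 1 (untreated replicate 3 or 4) to 4. Csf2ra, a receptor subunit for the GM-CSF in the culture, fell from 286 ± 97.5 to 102 ± 49.5 CPM, and Sirpa, the inhibitory receptor for CD47, from 1654 ± 304 to 257.5 ± 284 CPM (SD, n = 4). Tlr2, a receptor for bacterial lipoproteins, fell from 261 ± 74.3 to 118 ± 49.6 CPM. Ccr2, the chemokine receptor that releases monocytes from marrow, was at 1294 to 1968 CPM in untreated and at 41.7, 37.0, 716 and 223 CPM in treated replicates 1 to 4, and fell (−2.71 ± 0.88, edgeR adjusted p = 0.0389; −3.76, adjusted p = 0.00655 with the block). These calls were close to the threshold: that of Ccr2 ended without any 1 library other than treated replicate 3 (edgeR adjusted p 0.0562 to 0.0918), that of Sirpa without untreated replicate 2, 3 or 4 or treated replicate 4 (0.0539 to 0.0685), that of Tlr2 without untreated replicate 3 or 4 or treated replicate 1, 2 or 4 (0.0525 to 0.0650), and that of Csf2ra without treated replicate 1 (0.0503). With no count filter the calls of Ccr2 (0.154) and Sirpa (0.122) ended too, and with housekeeping scaling that of Tlr2 (−0.58, adjusted p = 0.149; adjusted p = 0.142 with the block). Without treated replicate 3, Ccr2 was at −4.07 and Sirpa at −3.72, where all libraries gave −2.71 and −2.68. Apoe, the lipid carrier and the most abundant uncalled gene of this list, was at 13608 ± 7746 CPM untreated and 7647 ± 4745 CPM treated (edgeR adjusted p = 0.371; 0.0289 with the block).

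Csf1r, the receptor for the macrophage growth factor M-CSF, was at 3033 ± 1381 CPM untreated and 966 ± 832 CPM treated, did not pass unpaired (edgeR adjusted p = 0.0895) and fell with the block (−2.10, adjusted p = 0.00571). The unpaired value of Csf1r was −1.65, and −2.26 without treated replicate 3 (adjusted p = 0.0288). Itgam, the CD11b integrin chain shared by monocytic and granulocytic cells, passed in neither fit (−0.75 ± 0.43, edgeR adjusted p = 0.190; adjusted p = 0.146 with the block). Its untreated libraries held 407 to 902 CPM, so this integrin transcript of the labelled cell type was present in all of them. Itgam shares 3450 exon bases with Gm49368 on the same strand and Csf1r 873 with Hmgxb3 on the opposite strand, so both values are uncertain.

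Of 32 paralogs and partners of the markers, 31 were tested. In the unpaired fit 3 fell and 28 did not pass, a share below the 16.2% of all genes, and 14 were lower with the block (20.8% of all genes). The count was 15 without treated replicate 3 (23.4% of all genes) and 0 to 2 without any other single library, 0 without untreated replicate 3 or 4 or treated replicate 2 or 4. The 3 called genes were Tlr4 (106 ± 49.8 to 27.6 ± 21.7 CPM), through which Cd14 signals, Cd180, a relative of Tlr4 (300.4 ± 124 to 40.8 ± 53.8 CPM), and the TGF-beta receptor chain Tgfbr2 (154 ± 36.2 to 73.9 ± 29.5 CPM; SD, n = 4). The call of Cd180 ended without any 1 library other than treated replicate 3 (edgeR adjusted p 0.0529 to 0.0969), that of Tlr4 without untreated replicate 3 or 4 or treated replicate 2 or 4 (0.0590 to 0.0632), and that of Tgfbr2 without untreated replicate 3 or 4 or treated replicate 1, 2 or 4 (0.0523 to 0.0589). With no count filter Cd180 (0.166) and Tlr4 (0.10) were not called, nor was Tgfbr2 with housekeeping scaling (−0.47, adjusted p = 0.204; adjusted p = 0.229 with the block). Leaving out treated replicate 3 moved Cd180 from −2.88 to −4.36 and Tlr4 from −1.95 to −2.65. Ly6e, the most abundant uncalled gene here, did not pass unpaired (−0.80 ± 0.44, edgeR adjusted p = 0.174) and fell with the block (adjusted p = 0.0194). Ly96, the adaptor that binds lipopolysaccharide beside Tlr4, did not pass unpaired (−0.98 ± 0.42, edgeR adjusted p = 0.0911) and fell with the block (adjusted p = 0.0424). Within the MS4A cluster, Ms4a6b (−2.27 ± 1.04, edgeR adjusted p = 0.113; −3.39, adjusted p = 0.00652 with the block) and Ms4a6d (−1.16 ± 0.73, adjusted p = 0.231; −1.81, adjusted p = 0.0281 with the block) passed with the block and not in the unpaired fit, as Ms4a7 and Ms4a6c did. Without treated replicate 3 both were called, Ms4a6b at −3.81 (adjusted p = 0.0119) and Ms4a6d at −2.09 (adjusted p = 0.0299). Adgre5, the adhesion receptor CD97 and a relative of Adgre1, averaged 194 ± 74.8 CPM untreated against 73.1 ± 64.9 CPM treated (edgeR adjusted p = 0.125; −1.86, adjusted p = 0.00955 with the block; unpaired −1.41, and −2.09 without treated replicate 3, adjusted p = 0.0286). Adgre5 shares 895 exon bases with Ddx39 and Cd180 182 with Mast4, both on the opposite strand, so these values are uncertain.

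Of 24 regulators of the monocyte lineage, 23 were tested, and 10 fell, 1 rose and 12 did not pass unpaired, where 16.2% of all genes were lower and 20.3% higher. The block gave 13 lower and 3 higher regulators (20.8% and 21.2% of all genes), and housekeeping scaling 7 lower and 3 higher (5.52% and 39.4%). Spi1, which encodes PU.1, fell in both fits (−2.56 ± 0.69, edgeR adjusted p = 0.0204; −3.18, adjusted p = 0.00714 with the block), and its unpaired call ended without treated replicate 4 (adjusted p = 0.0546) and with no count filter (0.0892). Without treated replicate 3 Spi1 was at −3.55. Irf8, which is needed for monocyte formation, was lower in all 4 pairs and passed in neither fit (−0.46 ± 0.23, edgeR adjusted p = 0.140; adjusted p = 0.0731 with the block). Runx1 (−0.81 ± 0.18, edgeR adjusted p = 0.00899), Bhlhe40 (−1.53 ± 0.26, adjusted p = 0.00349) and Gfi1, a repressor that favours granulocytes over monocytes (−2.94 ± 0.55, adjusted p = 0.00510), fell. Gfi1 was at −3.57 without treated replicate 3. With housekeeping scaling Runx1 was at −0.15 (adjusted p = 0.639) and Bhlhe40 at −0.83 (adjusted p = 0.0628). Nr4a1, which is required for nonclassical monocytes, rose (4.21 ± 0.73, edgeR adjusted p = 0.00390), by 3.05 without treated replicate 2 (adjusted p = 0.00192), its highest library. Cebpb, the most abundant uncalled regulator, was at 478 ± 108 CPM untreated and 354 ± 188 CPM treated (edgeR adjusted p = 0.387). Exons of Runx1, Gfi1, Bhlhe40 and Cebpb overlap other genes on the opposite strand, so their values are uncertain.

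**Figure D5:**
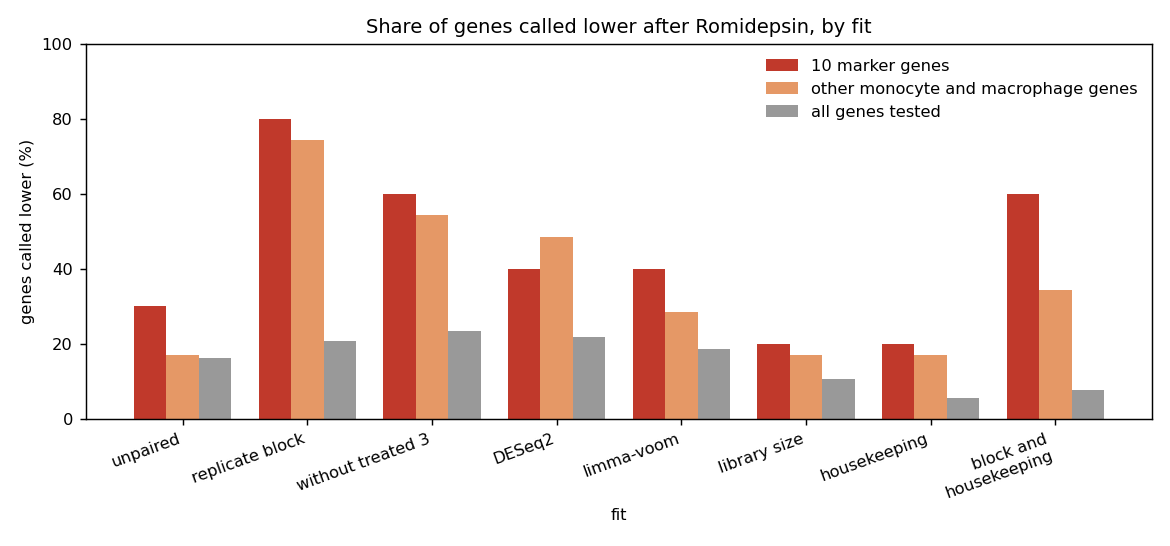
Share of genes called lower, in percent, among the 10 marker genes, 35 other monocyte and macrophage genes and all genes tested, in 8 fits. The marker bars stand at 30.0% in the unpaired fit and at 80.0% with the replicate block, and the grey bars of all genes stay between 5.52% and 23.4%.

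Markers of other cell types were measured in the same libraries. The 16 neutrophil markers summed to between 4380 and 11451 CPM without the drug and to between 1320 and 4731 CPM with it, and the 12 dendritic cell markers, of which 8 were tested, to 2388 to 7860 and 967 to 2762 CPM. The summed level of 8 B cell markers was 316 to 1263 and 38.5 to 742 CPM. Of the tested genes in these 3 lists, 5 of 16, 2 of 8 and 4 of 8 fell unpaired in edgeR (16.2% of all genes), and 0 rose (0 at an unadjusted p under 0.05, and 0 in DESeq2). With the block 9, 5 and 6 were lower (20.8% of all genes), and 1 dendritic cell marker was higher. Housekeeping scaling in the unpaired fit also gave 1 higher dendritic cell marker, and 5, 0 and 1 lower in the 3 lists (5.52% of all genes). With no count filter 1 of 16, 1 of 12 and 2 of 8 were lower (6.27% of all genes). Leaving out 1 library gave 4 to 6 neutrophil markers, 0 to 3 dendritic cell markers (0 without untreated replicate 2 or 3 or treated replicate 1 or 4, and 3 without treated replicate 2) and 1 to 6 B cell markers (1 without untreated replicate 2 or treated replicate 1 or 4, 2 without untreated replicate 3, and 6 without treated replicate 2). For comparison, the 10 markers summed to 33873 to 45300 CPM in untreated and 14100 to 31879 CPM in treated libraries. Lyz2, which is also abundant in neutrophils, made up at least 80.6% of this sum in every library, so the sums do not compare amounts of cell types. T and NK cell markers summed to at most 31.7 CPM, mast cell and basophil markers to at most 96.1 CPM and stromal markers to at most 180.5 CPM, the last in treated replicate 2. In the dendritic cell list Xcr1, and in the T and NK cell list Ncr1, was at 0 in 4 or more libraries. The untreated library with the most dendritic cell marker transcripts, replicate 1, was the lowest in 6 of the 10 monocyte and macrophage markers. The part of these other cells in the results was not tested.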

How the data were processed

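The deposited table holds raw counts of reads, as whole numbers, for Ensembl genes in 8 libraries, and the authors applied no normalization to it. The tools named are STAR 2.5.2a, FastQC and DESeq2, on build GRCm38 (mm10), per the submitters' processing notes. How reads were counted, with which annotation and strand setting, is not given in the sources used here. Of 26930 identifiers, 26881 matched a symbol, and no 2 libraries were identical.

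Counts were compared with edgeR 4.0.16 in R 4.3.3: filterByExpr, TMM scaling, a robust two-sided quasi-likelihood F test, and Benjamini-Hochberg adjustment over all tested genes with a threshold of 0.05. The pairs' ratios used CPM + 1. The unpaired fit is the main one. Deviations from group means correlated at 0.525, 0.180, 0.474 and 0.104 between libraries with numbers 1 to 4, all above the bound of 0.1, so same-numbered libraries were treated as pairs, on the data and not on a label. The last value is close to the bound. It is also close to the highest correlation between unlike numbers, 0.087 for untreated replicate 4 with treated replicate 2.

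Alternatives were the replicate block, other scalings and filters, DESeq2 1.42.0, limma-voom (limma 3.58.1) and leaving libraries out, with the tested genes kept. The code of the unpaired edgeR fit was tested on simulated counts without pairs. The other fits were not tested in this way. The genes and lists were chosen with earlier results of these data known. Named were all 10 markers and, per list, up to 3 called genes with the smallest p, up to 2 in the other direction, the most abundant uncalled gene, and 12 further genes by name. For each marker the gene with the most similar paired ratios was named, and BE692007 and Gm30489 because they overlap a marker. Positions, exon lengths and overlaps come from GENCODE M21 (GRCm38). The erythroid and megakaryocyte marker list is not reported here.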

Additional observations from a re-analysis of the deposited data

Results flagged for a closer look

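In groups of 4 libraries, a library was set apart when its gap to the nearest other one exceeded Dixon's critical share of the group's range, which chance gives in about 1 of 20 groups. The search covered 68 groups, from 34 genes. None of the 10 markers had such a library in either group. Among the other named genes, Gfi1 was at 2.65 CPM in treated replicate 3, above the 3 other treated libraries. Nr4a1 was at 288 CPM in treated replicate 2, above the 3 others.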

How the results depend on the processing

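Of the 10 markers, 3 were called lower in the unpaired fit. The count was 0 with no count filter (5 at an unadjusted p under 0.05), 8 with the replicate block, 7 with the block and without both libraries of number 3, and 6 with the block and either library size or housekeeping scaling. Leaving out 1 library gave 0 to 6 markers, with 0 without untreated replicate 4 (3 at an unadjusted p under 0.05) and 6 without treated replicate 3. DESeq2 and limma-voom each called 4. The settings that join the block with another choice were added after seeing the data.

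Over all genes, 2080 were lower and 2610 higher. Library size alone gave 1368 lower and 3886 higher, and housekeeping scaling 709 and 5065, so that higher genes made up a larger part of the calls. With the block and housekeeping scaling 997 were lower and 5684 higher, and with the block and library size 4275 were higher. Leaving out 1 library gave 1183 to 3010 lower and 1716 to 3146 higher genes.

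All 10 fold changes stayed below 0 in the 18 planned settings, except under housekeeping scaling (Adgre1 0.084, Cd14 0.29) and without treated replicate 1 (Cd14 0.076). Leaving out 1 library moved Cd14 between −0.74 and 0.076. With the block and housekeeping scaling Adgre1 was at 0.25 and Cd14 at 0.14. Other signs turned for uncalled genes: Cebpb (0.17, and 0.13 with the block) and Irf8 (0.30, and 0.23 with the block) under housekeeping scaling, and Ly6c1 with library size (0.15, and 0.13 with the block), housekeeping scaling (0.44, and 0.46 with the block), and when 1 library was left out (−1.62 to 1.21; above 0 without untreated replicate 3 or treated replicate 1, 2 or 4). The cause was not tested. The depth limits Ly6c1, which rests on few counts.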
